A study of Rattus norvegicus with 15 samples.

Results

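The metallothionein genes Mt1, Mt2A and Mt3 and the gene of their zinc sensor, Mtf1, were followed in 15 mammary tumours of rats that had been raised on 3 levels of dietary zinc. They were found by matching the accession of each array probe to a rat gene symbol. Of 41012 probes, 4 matched, 1 for each gene, among 13832 genes named on the array. Metallothioneins are small, cysteine-rich proteins that bind zinc and copper and release them again. In mouse and human cells MTF1 is a zinc finger transcription factor that binds free zinc, moves to the nucleus and switches on genes whose promoters hold metal response elements, the metallothioneins first among them. Mt1 and Mt2A are made in most tissues and are also switched on by glucocorticoid hormones, whereas Mt3 is known mainly from the brain.

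All tumours were tubular or papillary, came from female Sprague-Dawley rats and were taken at 180 days, after 1 oral dose of DMBA (7,12-dimethylbenz[a]anthracene, which causes mammary tumours in rats) at 50 mg/kg on day 51. The groups were 5 tumours of rats raised on zinc-deficient chow (3 mg of zinc per kg), 5 of control rats, whose chow was adequate in zinc (35 mg/kg), and 5 of rats raised on zinc-supplemented chow (180 mg/kg). Each chow was given to 16 dams from gestation day 10 and to their daughters until day 51, and every animal ate adequate chow from then on. No label tells if tumours of 1 diet share an animal or a litter, so the spread behind the p-values is that between the samples as given.

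Each array reports a level, the log2 of a probe's signal minus the log2 of the 75th percentile of its own array. That percentile, called brightness here, ran from 50.7 to 177 between arrays, and 13854 to 24009 of the 43379 spots stood well above background. There were 4 slides, and each carried arrays of all 3 diets. Luminal epithelial genes were present: 8 of 8 measured markers, keratins Krt8 and Krt18 among them, stood well above background on every array. They mark mammary epithelium, in gland and tumour alike. In whole tumours, fewer cells of a type and less RNA per cell cannot be told apart.

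The promoters are shown because metal response elements are the feature through which MTF1 recognises its targets. Each sequence is the RefSeq stretch of assembly GRCr8 from 250 bases before to 50 bases after the gene's start, read 5′ to 3′ on the gene's strand. Capitals mark the core of the metal response element, TGCACNC or TGCGCNC, on either strand, so that it appears there also as GNGTGCA or GNGCGCA.
Mt1: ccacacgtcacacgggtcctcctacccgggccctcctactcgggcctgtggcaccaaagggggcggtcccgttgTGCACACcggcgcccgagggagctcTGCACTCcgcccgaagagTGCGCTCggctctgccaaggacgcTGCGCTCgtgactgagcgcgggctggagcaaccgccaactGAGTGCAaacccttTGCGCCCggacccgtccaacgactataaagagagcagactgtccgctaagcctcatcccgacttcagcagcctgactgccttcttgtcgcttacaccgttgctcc
Mt2A: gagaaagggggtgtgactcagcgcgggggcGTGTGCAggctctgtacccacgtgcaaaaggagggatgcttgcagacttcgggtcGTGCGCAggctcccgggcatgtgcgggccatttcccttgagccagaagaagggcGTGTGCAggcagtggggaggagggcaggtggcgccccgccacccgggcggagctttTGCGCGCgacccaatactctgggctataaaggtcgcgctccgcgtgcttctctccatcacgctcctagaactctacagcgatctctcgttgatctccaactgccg
Mt3: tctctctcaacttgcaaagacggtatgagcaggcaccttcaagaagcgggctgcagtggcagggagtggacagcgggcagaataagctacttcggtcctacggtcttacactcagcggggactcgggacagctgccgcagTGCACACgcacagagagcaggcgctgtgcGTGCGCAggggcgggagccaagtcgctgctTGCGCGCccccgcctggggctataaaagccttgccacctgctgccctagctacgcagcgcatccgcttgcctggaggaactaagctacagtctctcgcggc
Mtf1: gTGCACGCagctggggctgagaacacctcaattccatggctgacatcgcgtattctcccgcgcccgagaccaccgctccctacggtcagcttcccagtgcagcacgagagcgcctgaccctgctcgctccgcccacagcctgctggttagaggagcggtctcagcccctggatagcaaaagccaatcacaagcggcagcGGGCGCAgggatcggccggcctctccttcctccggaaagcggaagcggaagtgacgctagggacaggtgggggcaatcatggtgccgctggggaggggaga

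The 3 metallothionein promoters lie together on chromosome 19, at chr19:10832926-10833225 for Mt1, chr19:10838659-10838958 for Mt2A and chr19:10856031-10856330 for Mt3, all on the minus strand. Nup93 and Mt4 are their neighbours on either side in the annotation. The Mtf1 promoter lies at chr5:142346804-142347103 on the plus strand. The core occurred 6 times in the Mt1 promoter, 4 times in Mt2A, 3 times in Mt3 and 2 times in Mtf1. Of 33469 rat promoters of the same length, 24.2% held at least 1 match. As many as in Mt1 were found in 0.0388% of them, as many as in Mt2A in 0.439%, as many as in Mt3 in 1.68% and as many as in Mtf1 in 6.36%. The match nearest the start began at base -55 in Mt1 and Mt2A and at -51 in Mt3 and Mtf1, counting the base before the start as -1. All 3 metallothionein promoters held the TATA box letters TATAAA, which 8.80% of promoters held, and Mtf1 did not. The antioxidant response element core TGACNNNGC occurred 1 time in Mt1 and in Mt2A, 2 times in Mtf1 and 0 times in Mt3, against 12.1% of promoters with a match. The glucocorticoid response element, AGNACA and TGTNCT with 3 bases between them, matched in none of the 4 windows and in 0.0568% of all promoters. These counts describe letters in a window and show no binding.

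Mt1 and Mt2A were well above background in all 15 tumours and varied widely inside every diet. The Mt1 level was 4.80, 4.23, 6.27, 5.20 and 4.12 in the 5 deficient tumours, 4.32, 2.80, 3.11, 4.65 and 6.33 in the 5 control tumours, and 4.30, 4.21, 3.29, 5.53 and 7.32 in the 5 supplemented tumours. Each diet had 1 tumour above 6, namely deficient replicate 3, control replicate 5 and supplemented replicate 5, and the 3 diets overlapped. From the lowest tumour, control replicate 2, to the highest, supplemented replicate 5, the Mt1 signal spanned 22.9-fold.

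The Mt2A level was 3.88, 3.15, 5.76, 4.45 and 3.13 in deficient tumours, 3.38, 2.26, 2.43, 3.59 and 5.04 in control tumours, and 3.33, 3.47, 2.43, 4.51 and 5.77 in supplemented tumours. The same 3 tumours were highest as for Mt1, the diets overlapped again, and the span was 11.4-fold.

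**Figure D1:**
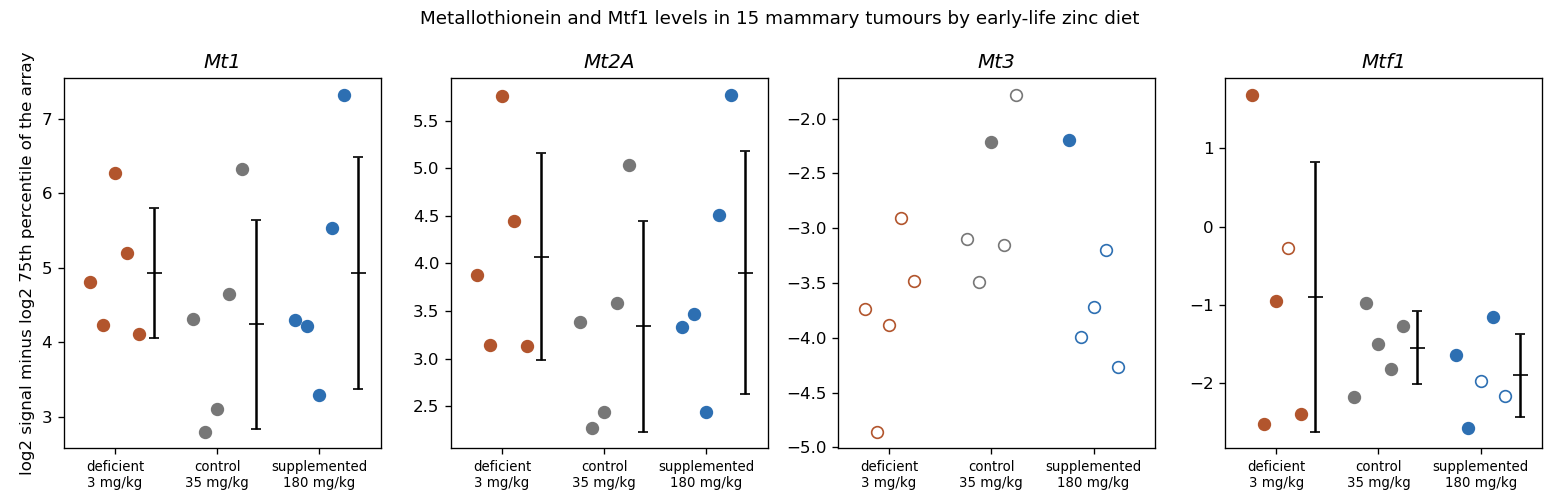
Levels of Mt1, Mt2A, Mt3 and Mtf1 (log2 signal minus log2 75th percentile of the array, 1 panel a gene, each with its own axis) in 5 tumours per diet, with zinc in the chow rising from left to right. Filled points are arrays where the probe was well above background, open points arrays where it was not, and bars are mean ± SD, drawn for the 3 genes that were tested; the diets overlap for each gene.

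The diets were compared to ask whether early zinc leaves a mark on the genes that respond most directly to cell zinc. Mean Mt1 levels were 4.92 ± 0.87, 4.24 ± 1.40 and 4.93 ± 1.55 at 3, 35 and 180 mg/kg, and mean Mt2A levels were 4.07 ± 1.09, 3.34 ± 1.11 and 3.90 ± 1.28 (SD, n = 5 each). The deficient minus control difference of Mt1 was 0.68, with a 95% interval from -0.86 to 2.23 and a limma adjusted p of 0.987. The supplemented minus control difference was 0.69 (interval -0.86 to 2.24, limma adjusted p = 1.000). Between supplemented and deficient tumours it was 0.01 (interval -1.54 to 1.55). No difference of Mt1 exceeded the spread between tumours.

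For Mt2A the differences were 0.73 (deficient minus control, interval -0.64 to 2.11), 0.56 (supplemented minus control, interval -0.81 to 1.94) and -0.17 (supplemented minus deficient, interval -1.55 to 1.21). The limma adjusted p-values of Mt2A lay between 0.967 and 1.000. Over log2 dietary zinc the slope was -0.01 for Mt1 and -0.04 for Mt2A. In an exact two-sided permutation test over all splits of each pair of diets, where the smallest p possible is 0.00794, the p-values were 0.397, 0.492 and 1 for Mt1 and 0.310, 0.492 and 0.833 for Mt2A. Within the 4 slides the deficient minus control difference ran from -1.37 to 2.63 for Mt1 and was above 0 in 3 of 4 slides. The supplemented minus control difference of Mt1 ran from -0.02 to 2.42 and was above 0 in 3 of 4. For Mt2A the deficient minus control difference ran from -1.18 to 2.67 within slides. Without control replicate 5 the 2 Mt1 differences from control were 1.20 and 1.21, and without supplemented replicate 5 the supplemented minus control difference was 0.09, all still short of the threshold.

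These null results stand against a background in which limma called 0 of 21014 probes (0%) in every diet comparison. Those with an unadjusted p under 0.05 numbered 821 for deficient against control, 415 for supplemented against control and 1483 for supplemented against deficient. The intervals still allow sizeable effects of diet: the upper bound for Mt1 in deficient minus control tumours is 2.23 on the log2 scale.

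The 2 metallothioneins moved together between tumours. Mt1 and Mt2A levels correlated with a Pearson r of 0.980 and a Spearman correlation of 0.975 over 15 tumours (permutation test, 100000 resamples, p = 1e-05, the smallest these resamples can give; adjusted over 3 pairs of genes, 3e-05 for both). With diet means subtracted r was 0.981, and within the 2 scan days, with 8 and 7 arrays, it was 0.972 and 0.977. The Spearman correlation was 0.976 and 0.786 within the scan days. On the second day, with 7 arrays, it did not pass (permutation test, 100000 resamples, adjusted p = 0.143), whereas r did (adjusted permutation p = 0.00648). Without the 2 tumours farthest from the median of Mt1, r was 0.981. The Mt1 minus Mt2A difference, which carries each probe's own brightness and has meaning only between tumours, averaged 0.85 ± 0.22 in deficient, 0.90 ± 0.30 in control and 1.03 ± 0.31 in supplemented tumours (SD, n = 5 each). Over the 15 tumours it ran from 0.51 to 1.55. It differed between no pair of diets beyond the spread of tumours (exact permutation p = 0.778 for deficient against control, 0.524 for supplemented against control and 0.389 for supplemented against deficient). Whether the 2 probes can bind each other's transcript was not tested.

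**Figure D2:**
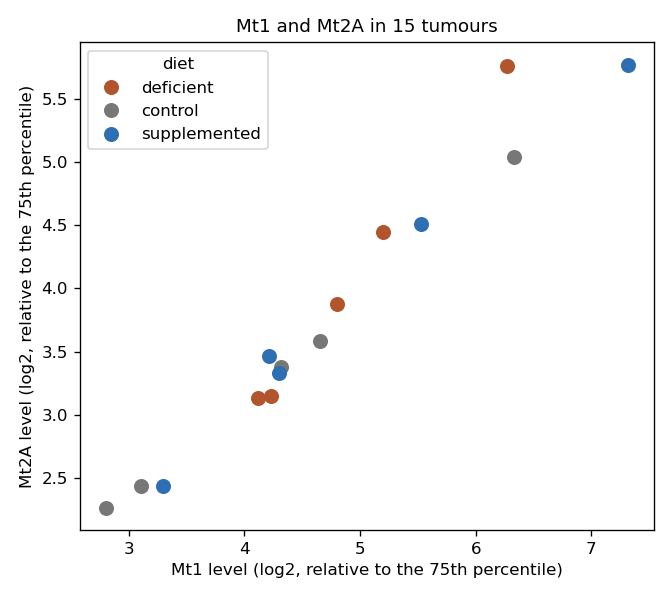
Mt2A level against Mt1 level (both log2, over the array's 75th percentile) in 15 tumours, 1 point a tumour, coloured by diet. The points follow 1 line (Pearson r = 0.980), with 1 tumour of each diet at the upper end and 2 control tumours and 1 supplemented tumour at the lower end.

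Mt3 was near background. Its probe stood well above background in 0 of 5 deficient tumours, 1 of 5 control tumours and 1 of 5 supplemented tumours, and it was not tested. The level was -3.74, -4.86, -3.88, -2.91 and -3.49 in deficient tumours, -3.09, -3.49, -2.22, -3.15 and -1.79 in control tumours, and -2.20, -4.00, -3.72, -3.20 and -4.27 in supplemented tumours. The 2 measured values were those of control replicate 3 at -2.22 and supplemented replicate 1 at -2.20, and the remaining 13 are not well above background. No fold is given, because every comparison of the brighter diet's mean with the lowest measurable signal in the dimmer one came out under 1.

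Mtf1 was measured well above background in 4 of 5 deficient, 5 of 5 control and 3 of 5 supplemented tumours. Its level was 1.68, -2.52, -0.95, -0.28 and -2.39 in deficient tumours, -2.17, -0.97, -1.49, -1.82 and -1.26 in control tumours, and -1.64, -2.57, -1.97, -1.15 and -2.16 in supplemented tumours. Deficient replicate 1 stood above all others, deficient replicate 2 lay near the bottom, and the diets overlapped. Deficient replicate 4 and supplemented replicates 3 and 5 were not well above background.

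Mean Mtf1 levels were -0.89 ± 1.72, -1.54 ± 0.47 and -1.90 ± 0.54 at 3, 35 and 180 mg/kg (SD, n = 5 each). The supplemented minus deficient difference was -1.01, with a 95% interval from -2.29 to 0.27 (limma adjusted p = 0.746; exact permutation p = 0.262). The deficient minus control difference was 0.65 (interval -0.63 to 1.93) and the supplemented minus control difference -0.35 (interval -1.63 to 0.92). Within slides the supplemented minus deficient difference ran from -3.32 to 0.25 and was above 0 in 2 of 4. Deficient replicate 1 carried much of this: without it the deficient minus control difference was 0.01 and the supplemented minus deficient difference -0.36.

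Mtf1 levels were lower on brighter arrays. The level has the log2 of the array's percentile subtracted, so a signal that stays flat between arrays gives a negative correlation by construction. The permutation tests do not allow for this, and the Mtf1 signal before subtraction was not tested. The Pearson r with the 75th percentile (linear signal) was -0.750 (permutation test, 100000 resamples, adjusted over 3 genes, p = 0.00057) and the Spearman correlation -0.671 (adjusted permutation p = 0.0236). It was -0.722 and -0.830 within the 2 scan days and -0.716 without the 2 arrays farthest from the median brightness. Deficient replicates 1 and 4 and control replicate 2 were the 3 dimmest arrays. Without these 3 arrays the deficient minus control difference of Mtf1 turned to -0.27 and the supplemented minus deficient difference to 0.05. For Mt1 and Mt2A the correlation with brightness was -0.235 and -0.284 (adjusted permutation p = 0.399 for both), and within the 2 scan days it was -0.663 and 0.312 for Mt1 and -0.712 and 0.238 for Mt2A.

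**Figure D3:**
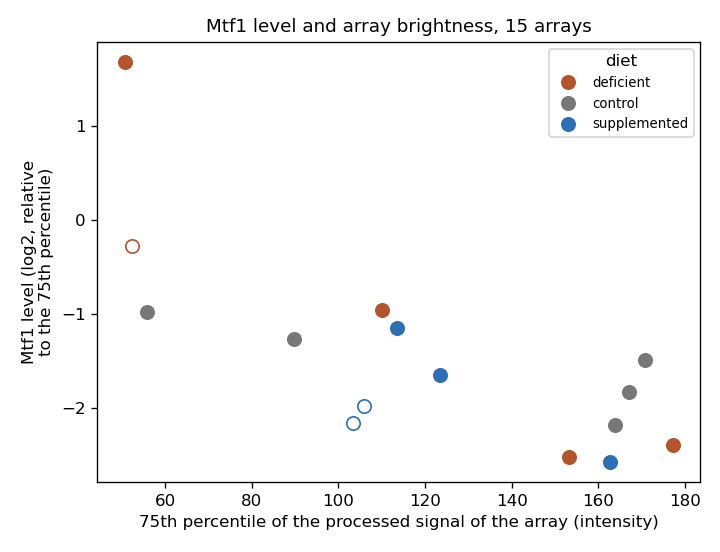
Mtf1 level (log2, over the array's 75th percentile) against the 75th percentile of the array's processed signal (linear intensity), 1 point for each of 15 arrays, coloured by diet, with open points where the probe was not well above background. The highest Mtf1 level, 1.68, was on the dimmest array, at 50.7, and levels fell towards brighter arrays (Pearson r = -0.750). The percentile is itself subtracted in the level, so the axes are not independent.

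No relation between Mtf1 and the metallothioneins was detected. The Mtf1 level correlated with that of Mt1 at r = 0.119 (Spearman 0.314) and with that of Mt2A at r = 0.191 (Spearman 0.286) over 15 tumours, and neither passed (adjusted permutation p = 0.670 for Pearson and 0.304 for Spearman). Without the 2 tumours farthest from the median these were 0.299 and 0.324. Messenger RNA is not the form in which MTF1 senses zinc, and its protein and location were not measured.

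Mt1 and Mt2A varied widely between tumours of the same diet, and Mtf1 did so among deficient tumours. The SD of Mtf1 was 1.72 in deficient, 0.47 in control and 0.54 in supplemented tumours. The 2 highest deficient values, 1.68 in replicate 1 and -0.28 in replicate 4, came from the 2 dimmest arrays (brightness 50.7 and 52.4). Replicate 4 was not well above background, so spread between tumours and array brightness cannot be told apart here. After diet, the SD between tumours was 1.31 for Mt1, larger than for 99.1% of tested probes, 1.16 for Mt2A (98.6%) and 1.08 for Mtf1 (98.1%), against a median of 0.388 over all tested probes. Without deficient replicate 1, the dimmest array, the SD of Mtf1 was 0.717, larger than for 89.8% of probes, while those of Mt1 and Mt2A were 1.37 and 1.21. The question was therefore which genes moved with Mt1 from tumour to tumour. A linear model held diet and the Mt1 level, so that a slope is the change in a gene's level per unit of Mt1 level among tumours of the same diet, and limma called 17 of 21013 probes at adjusted p under 0.05 (0.0809%), of which 14 rose (0.0666%) and 3 fell (0.0143%). At an unadjusted p under 0.05 there were 1802 (8.58%).

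Mt2A led, with a slope of 0.87 ± 0.06 (SE; limma adjusted p = 6.4e-06). Among the named genes that rose with Mt1 were Fkbp5, a co-chaperone of the glucocorticoid receptor that glucocorticoids induce, Sgk1, the serum- and glucocorticoid-regulated kinase, Errfi1, an inhibitor of the EGF receptor, H19, an imprinted long non-coding RNA, Mmp12, the macrophage elastase, Rasd2, a small GTPase, and Nxpe3. Those that fell were Krt6c, a keratin of stratified epithelium, and Rbms3, an RNA-binding protein. The 6 remaining called probes have no symbol in the gene table used here; 5 of them rose and 1 fell.

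The Fkbp5 level was 2.01, 1.59, 3.17, 2.25 and 1.35 in deficient tumours, 1.06, 0.34, 2.00, 3.40 and 4.24 in control tumours, and 2.00, 1.03, 1.11, 3.16 and 4.42 in supplemented tumours. It was highest in supplemented replicate 5 and control replicate 5 and lowest in control replicate 2, which were also the 2 highest tumours and the lowest tumour for Mt1, and the diets overlapped. Its slope on Mt1 was 0.91, with a 95% interval from 0.65 to 1.16 (limma adjusted p = 0.00788). A second Fkbp5 probe had a slope of 1.09 (limma adjusted p = 0.00935) and the remaining probe 0.59 (limma adjusted p = 0.135).

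The Sgk1 level was 0.68, 1.04, 2.41, 0.66 and 1.39 in deficient, 1.88, -0.65, 0.45, 3.11 and 2.37 in control, and 1.48, 1.39, 0.33, 1.94 and 3.78 in supplemented tumours. The top and bottom tumours were again supplemented replicate 5 and control replicate 2. Its slope was 0.78 (interval 0.49 to 1.07, limma adjusted p = 0.0497), just inside the threshold. Leaving out 1 tumour at a time, the slope ran from 0.68 to 0.90 and the call was lost in 12 of 15 fits. It was also lost with quantile normalization, with or without normexp, and with the deposited values.

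Errfi1 moved over a narrower range, with levels of 3.21, 3.10, 4.26, 3.27 and 3.31 in deficient, 3.25, 2.56, 3.02, 3.56 and 3.90 in control, and 3.26, 3.66, 2.81, 3.72 and 4.50 in supplemented tumours. The 3 tumours with the highest Mt1 had the 3 highest Errfi1 levels. The slope was 0.38 (interval 0.26 to 0.50, limma adjusted p = 0.0158).

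H19 had the steepest slope among the named genes, 1.42 (interval 0.96 to 1.88, limma adjusted p = 0.0158). Its levels were 2.35, 1.31, 5.79, 2.68 and 2.21 in deficient, 2.93, -0.86, -1.43, 3.85 and 5.27 in control, and 1.63, 2.84, 2.25, 2.81 and 5.47 in supplemented tumours. The same 3 tumours stood apart at the top, each above 5. Rasd2, Nxpe3 and Mmp12 had slopes of 0.60, 0.53 and 0.45.

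Krt6c ran the opposite way. Its levels were 2.90, 3.93, 1.41, 3.88 and 4.13 in deficient, 3.39, 5.14, 4.78, 2.58 and 2.01 in control, and 2.75, 4.70, 4.73, 3.58 and -0.68 in supplemented tumours. Supplemented replicate 5, the highest tumour for Mt1, was far below the rest. The slope was -1.12 (interval -1.44 to -0.80, limma adjusted p = 0.00821), and it was -0.90 without that tumour (limma adjusted p = 0.176). A second Krt6c probe had a slope of -0.33 and did not pass. Rbms3 had a slope of -0.31 (limma adjusted p = 0.0357).

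**Figure D4:**
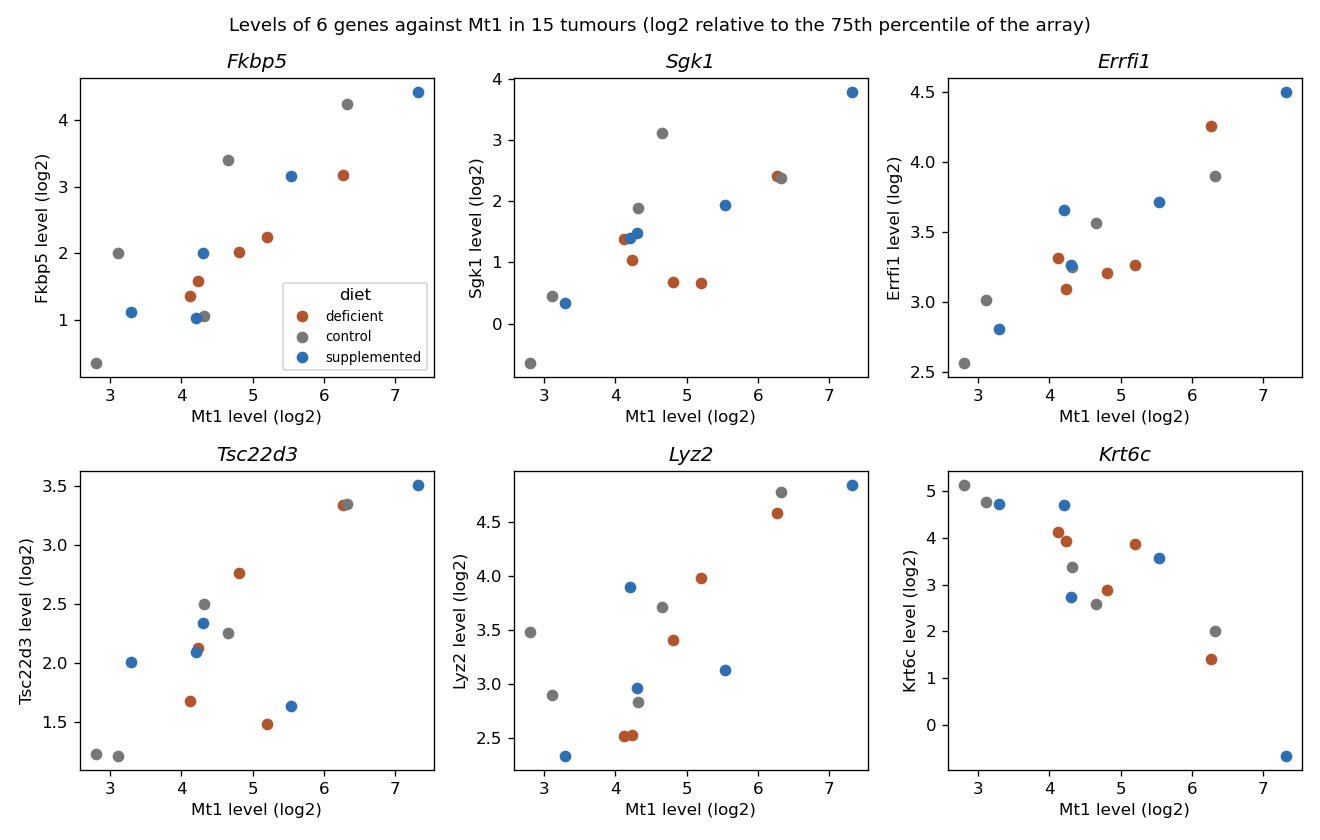
Levels of Fkbp5, Sgk1, Errfi1, Tsc22d3, Lyz2 and Krt6c against the Mt1 level in 15 tumours (both axes log2, over the array's 75th percentile), 1 point a tumour, coloured by diet. Fkbp5, Sgk1 and Errfi1 rose with Mt1 and Krt6c fell; Tsc22d3 and Lyz2, with slopes of 0.47 and 0.56, did not pass the test.

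Of the remaining genes with the smallest p, Kcnh2, a potassium channel, and Ubd, a ubiquitin-like protein, had slopes of 0.56 and 0.96 that did not pass (limma adjusted p = 0.0559 and 0.0682). Trpc6, a cation channel, Ttc8, a ciliary protein, Slco5a1 and Lurap1l had slopes of -0.60, -0.39, -0.33 and -0.50 (limma adjusted p = 0.0559, 0.0823, 0.109 and 0.109). With the deposited values the slope of Trpc6 was 0.30.

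Mt2A, taken in place of Mt1, gave 18 calls (0.0857%; 2134 probes, 10.2%, had an unadjusted p under 0.05), 14 that rose (0.0666%) and 4 that fell (0.019%). Of these 13 were also called with Mt1, all with the same sign, which is 76.5% of the Mt1 calls and 72.2% of the Mt2A calls; the 2 genes track each other, so these are not separate evidence. Called with Mt2A but not with Mt1 were Lyz2, the macrophage lysozyme, at a slope of 0.66, Itgb2, the leukocyte integrin subunit, at 0.63, Ubd, and Ttc8 at -0.45. Fkbp5, Errfi1, Mmp12 and H19 rose with Mt2A too, with slopes of 0.98, 0.43, 0.52 and 1.59. The Ttc8 probe was well above background on only 8 arrays. Sgk1, Nxpe3 and Rasd2 were not called with Mt2A. Whether slopes on Mt1 and on Mt2A differ was not tested.

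These calls rest on few tumours. Without supplemented replicate 5, limma called 2 probes with Mt1 and 1 with Mt2A. Without control replicate 5 it called 3 and 1, and without deficient replicate 3 it called 19 and 1. These 3 tumours, the highest for Mt1, were all scanned on the same scan day, so slopes on Mt1 overlap with scan day. No fit held a term for scan day alone, but each slide was scanned on 1 day. With slide as a block limma called 1 and 1, Mt2A and Mt1 themselves. The slopes moved less than the calls: with slide as a block Fkbp5 had a slope of 0.68 (limma adjusted p = 0.462), Errfi1 0.35, H19 1.48 and Krt6c -1.05 (limma adjusted p = 0.462 for both).

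Several genes known to respond to glucocorticoids rose with Mt1. Of 11 listed, 7 were measured; 3 of these rose (Fkbp5, Errfi1 and Sgk1), 0 fell, and 6 of 7 slopes were positive, with a median of 0.38. Over all 8380 tested genes 8 rose and 2 fell, 50.6% of slopes were positive and the median was 0.0015. The 3 genes are themselves among these 8. The list was chosen with earlier results of these data known, so this contrast is not independent evidence. With Mt2A, 2 of the 7 rose, 7 slopes were positive and the median was 0.44. Over all 8380 tested genes 8 rose with Mt2A and 3 fell, 50.9% of slopes were positive and the median was 0.0031. Tsc22d3, the glucocorticoid-induced leucine zipper, had a slope of 0.47 (limma adjusted p = 0.127), Cebpd, a transcription factor, 0.35 (limma adjusted p = 0.470) and Klf9, another, 0.27 (limma adjusted p = 0.245). The receptor gene Nr3c1 had a slope of -0.04 (limma adjusted p = 0.953). Dusp1, Per1, Pdk4 and Zbtb16 were not measured. In this list 0 genes were called without supplemented replicate 5, 0 without control replicate 5 and 0 with slide as a block, where 7 of 7 slopes were positive each time. Of the 15 fits that left out 1 tumour, Sgk1 lost its call in 12, Errfi1 in 3 and Fkbp5 in 2.

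Genes listed as metal or MTF1 targets, apart from the metallothioneins, were 10, of which 8 were measured. With Mt1, 0 of the 8 were called, where 10 of all 8380 tested genes were, so a count of 0 is no result about this list. Of their slopes 5 were positive, and the median was 0.04. Slc30a1, the exporter that MTF1 induces when zinc is high, had a slope of -0.05 (interval -0.17 to 0.07, limma adjusted p = 0.894). Slc30a2, which loads zinc into vesicles, had 0.33 (limma adjusted p = 0.320) and Ndrg1, induced by hypoxia and metals, 0.49 (limma adjusted p = 0.416). Csrp1 had 0.06. By diet, 0 of the 8 were called in any comparison, and 0 of the 7 glucocorticoid genes were.

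Macrophage genes had positive slopes on Mt1 that did not pass. Of 7 listed, 6 were measured, 0 were called, 6 of 6 slopes were positive and the median was 0.28. With Mt2A, 1 of the 6, Lyz2, was called (limma adjusted p = 0.0288), and the median was 0.34. Of all 8380 tested genes 8 rose with Mt2A and 3 fell, and the median was 0.0031. On Mt1, Lyz2 had a slope of 0.56 (limma adjusted p = 0.0918), Cd68 0.40 (limma adjusted p = 0.127), Aif1 0.29 (limma adjusted p = 0.477) and Csf1r 0.27 (limma adjusted p = 0.629). Adgre1 had 0.26 (limma adjusted p = 0.716). Cd14, well above background on 15 arrays, had a slope of only 0.009 (limma adjusted p = 0.990). The summed linear level of the 6 genes ran from 27.3 to 79.1 in deficient, 30.3 to 68.7 in control and 24.8 to 59.7 in supplemented tumours. Deficient replicate 3 at 79.1, control replicate 5 at 68.7 and supplemented replicate 5 at 59.7 were the 3 highest, the same 3 tumours as for Mt1, and the next was deficient replicate 4 at 42.4. With the mean level of the macrophage list in the model, only Mt2A stayed called with Mt1. Fkbp5 then had a slope of 0.95 (limma adjusted p = 0.397), Sgk1 0.85 (limma adjusted p = 0.916), Errfi1 0.31 (limma adjusted p = 1.000) and Mmp12 0.22 (limma adjusted p = 1.000).

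Of 7 T cell genes 3 were measured, Cd3d, Cd3e and Cd3g, with slopes of 0.37, 0.46 and 0.45 and 0 called. Their summed linear level ran from 4.15 to 14.7 in deficient, 4.29 to 11.2 in control and 2.61 to 23.9 in supplemented tumours. The part of these cells in the slopes of the other genes was not tested beyond the macrophage term.

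No gene of the other lists was called with Mt1. Over all 8380 tested genes 8 rose and 2 fell, so a count of 0 is no result about these, the macrophage or the T cell list. Median slopes were 0.24 for adipocyte genes (3 measured), 0.10 for erythrocyte genes (5), 0.05 for acute phase genes that STAT3 drives (13), 0.04 for antioxidant genes that NRF2 drives (5) and 0.03 for hypoxia genes (11). They were 0.02 for milk secretory genes (8) and 0.02 for heat shock genes (8). Below 0 lay luminal epithelium at -0.03 (8), proliferation at -0.04 (5), endothelium at -0.05 (3), fibroblasts at -0.09 (6), basal and myoepithelial cells at -0.09 (6) and skeletal muscle at -0.18 (2). Hmox1, the NRF2 target that also answers to metals, had a slope of 0.20 (limma adjusted p = 0.715) and A2m, a classical rat acute phase gene, 0.23 (limma adjusted p = 0.634). Egln3 and Adm of the hypoxia list had 0.45 and 0.29. Of the B cell and plasma cell list no gene was measured.

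**Figure D5:**
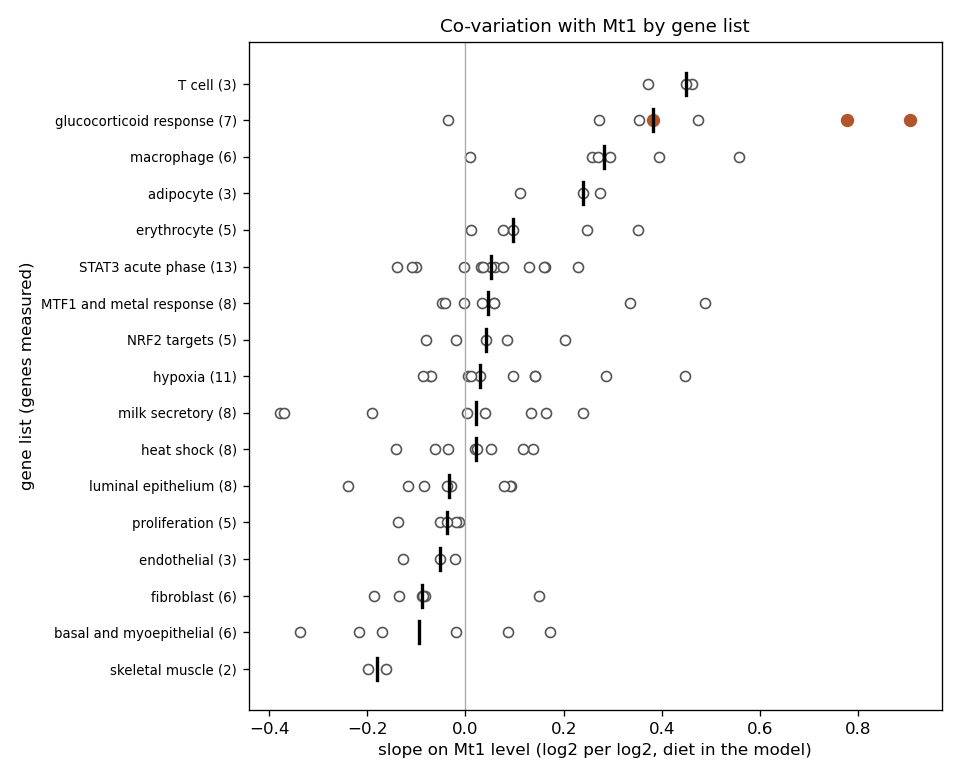
Slope of each measured gene on the Mt1 level (log2 per log2, with diet in the model), 1 row a gene list with the number of genes measured, ordered by the median (black bar). Filled points passed limma at adjusted p under 0.05: they are the 3 glucocorticoid response genes Fkbp5, Sgk1 and Errfi1.

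No probe moved with Mtf1 beyond the threshold. Limma called 0 of 21013 probes (0%), with 2314 at an unadjusted p under 0.05 (11%). The smallest p-values among genes with a positive slope were those of Zfp668 (slope 0.45, limma adjusted p = 0.106), the RNA exosome subunit Exosc2 (0.38), the chaperone Dnajb11 (0.30), Nacc2 (0.66) and the glycogen-targeting phosphatase subunit Ppp1r3b (0.39). Among those with a negative slope they were Fam118a (-0.57, limma adjusted p = 0.168), the transcription termination factor Ttf2 (-0.49) and Tmem209 (-0.42). Zfp668 was well above background on 15 arrays and Dnajb11 on 11. Exosc2, Fam118a, Ttf2 and Tmem209 were so on 10 each, Nacc2 on 8 and Ppp1r3b on 5. The Mtf1 level itself fell with array brightness. With brightness as a covariate limma called 0 probes, and 1296 had an unadjusted p under 0.05. Without deficient replicate 1, the tumour with the highest Mtf1 on the dimmest array, limma called 61 probes. Of the glucocorticoid list 3 of 7 slopes on Mtf1 were positive and of the metal list 4 of 8, with medians of -0.03 and 0.02. Over all tested genes 46.4% of slopes on Mtf1 were positive and the median was -0.01.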

How the data were processed

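RNA from 15 tumours was measured on single-colour (Cy3) Agilent arrays. The deposited scanner files hold spot intensity that Feature Extraction 11.5.1.1 background-subtracted and detrended, per the file headers, whereas version 15.5 is named in the submitters' processing notes. The free-text description of the labels speaks of mammary gland at day 21, but the tissue and age characteristics (mammary tumour, 180 days) were followed, and the label negative control was taken to mean adequate chow. A second table the authors deposited holds log2 values for 30002 probes; its array medians lay between 7.09 and 7.10 and it followed the log2 median spot signal (Pearson r across probes 0.984 to 1.000), while its exact normalization is not given in the sources used here.

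Levels were log2 processed signal minus the log2 of the array's 75th percentile. Spots marked as non-uniform or population outliers were set to missing. Probes well above background on at least 5 arrays were tested, 21014 with 39 missing values. Accessions were matched to RefSeq symbols (GRCr8): 17502 probes had a symbol, 0 had several, and the tested ones covered 8381 genes. A gene is shown by its tested probe with the highest mean level. The number of arrays limits the precision.

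Diets, and slopes on Mt1, Mt2A or Mtf1 with diet in the model, were fitted over all tested probes with limma 3.58.1 in R 4.3.3 (two-sided, Benjamini-Hochberg, threshold 0.05). Fits were tested on simulated data. Genes were named by rule: the 10 that rose and 6 that fell with the smallest p for Mt1, 5 and 3 for Mt2A and Mtf1, up to 4 of each list, and Slc30a1. Itgb2, Cebpd, Klf9, Nr3c1, Adgre1 and Cd14, and Lyz2 and Ubd as calls with Mt2A, were chosen after their values were seen. Members, 18 gene lists and alternatives were chosen with earlier results of these data known. Alternatives were normexp with quantile normalization (on median signals, since no mean signal is in the files), quantile normalization, the deposited values, other filters, slide, replicate and brightness terms, and leaving out arrays; the macrophage term and the spread without deficient replicate 1 were added after the values were seen.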

Additional observations from a re-analysis of the deposited data

Results flagged for a closer look

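Errfi1 in deficient replicate 3 had a level of 4.26, set apart from the other 4 deficient tumours, which lay between 3.10 and 3.31. Ttc8 in control replicate 5 had a level of -3.11, set apart from the other 4 control tumours, which lay between -2.05 and -1.81. Both are single samples far from the others of their diet by Dixon's criterion. The Ttc8 probe was well above background on only 8 arrays. On control replicate 5 the lowest level well above background was -1.72. The Ttc8 value of -3.11 there was therefore not well above background and is not a measured low. The criterion was applied to 42 groups of 5 tumours, and by chance about 1 group in 20 meets it. That rate holds for unselected, independent groups, whereas these came from the member genes and the named genes called with Mt1, Mt2A or both. Lyz2, Itgb2 and Ubd, called with Mt2A only, were not included. Deficient replicate 3 and control replicate 5 are also 2 of the 3 tumours with the highest Mt1. Errfi1 and Ttc8 were examined because they were called with Mt1 or Mt2A, so this overlap is no separate evidence.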

How the results depend on the processing

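Under every alternative the Pearson correlation of Mt1 with Mt2A, and the slope of each on the other, kept their direction and passed the test; the Spearman correlation did not pass within the second scan day (Spearman 0.786, permutation test, adjusted p = 0.143). No diet difference of Mt1, Mt2A or Mtf1 passed under any alternative. Signs near 0 turned for the supplemented minus deficient difference of Mt1 with normexp and quantile normalization (-0.070) and with the deposited values (-0.096), and for that of Mt2A with slide as a block (0.13). The zinc slope of Mt1 turned with slide as a block (0.028), without the 3 dimmest arrays (0.012) and with brightness as a covariate (0.00297), and that of Mt2A with slide as a block (0.00242). Without the 3 dimmest arrays, Mtf1 turned to -0.27 for deficient minus control, 0.054 for supplemented minus deficient and 0.00782 for the zinc slope. The slope of Trpc6 on Mt1 turned to 0.011 (normexp) and 0.30 (deposited values). The causes were not tested.

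Leaving out 1 tumour at a time, the supplemented minus deficient difference ran from -0.59 to 0.42 for Mt1 and -0.64 to 0.25 for Mt2A, and the zinc slope from -0.11 to 0.052 and from -0.12 to 0.038. The number of called probes ran from 2 to 28 with Mt1, 1 to 71 with Mt2A and 0 to 61 with Mtf1. It was 0 to 1 for supplemented minus deficient and for the zinc slope, the 1 being without supplemented replicate 1. Some single tumours moved the count upwards: without deficient replicate 4 it was 28 with Mt1 and 54 with Mt2A, without control replicate 2 it was 40 with Mt2A, and without supplemented replicate 4 it was 71. Others moved it downwards: it was 11 with each gene without control replicate 3, 9 with Mt1 and 7 with Mt2A without supplemented replicate 3, and 10 with Mt2A without deficient replicate 2.

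For Mt1, Mt2A and Mtf1 in turn, the count of calls (17, 18 and 0 as reported) was 26, 30 and 6 with normexp and quantile normalization, 26, 29 and 6 with the deposited values, 11, 8 and 1 with quantile normalization, and 7, 1 and 6749 with no filter on dim probes. For Mt1 and Mt2A it was 1 and 1 with slide as a block, 53 and 115 without the 3 dimmest arrays, 33 and 55 with brightness as a covariate, and 1 and 1 with the macrophage list level as a covariate, which was added after seeing the data. Without diet terms it was 37 for Mt2A and 20 for Mtf1. In the fit with the replicate block it was 1 for Mt1 and 3 for Mt2A. No label says whether replicate numbers pair the samples. Correlations between same-numbered tumours ran from -0.281 to 0.224. Their mean was -0.00039, against 0.0011 for tumours with different numbers, so same-numbered tumours were no more alike. The arrays of replicate 1 shared a slide across the diets, as did those of replicate 2 and those of replicate 5. This block therefore overlaps with slide. Co-variation with Mt3 was not run because its probe was well above background on 2 arrays, and Mt1, Mt2A, Mt3 and Mtf1 have no second probe to try. Signal over background limits Mtf1 and Mt3, whose probes were not well above background on 3 and 13 arrays.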
